A study of Populus x canadensis with 4 samples.

Results

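miR171, miR473 and miR477 are microRNA families linked to GRAS transcription factors, and here they comprised 22 of the 529 distinct small RNA sequences in a leaf microRNA table. A sequence was a member when its name carried exactly the number of one of these families directly after miR or MIR, whatever the species prefix or arm, and rows that list the same sequence were summed. Of the members, 13 were miR171, 2 were miR473 and 7 were miR477. The leaves came from the hybrid poplar Populus × euramericana 'Neva', grown as rooted cuttings from branches of 1 year in water culture for 90 days. Plants then spent 3 days in culture solution with para-hydroxybenzoic acid at 0, 2, 4 or 8 mM, a plant phenolic known from the soils of replanted poplar stands. RNA of plants under the same treatment was mixed in equal parts, so that each dose was 1 library and nothing shows how far plants differed. The table holds no leaf marker genes, so the tissue label was not checked.

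GRAS proteins are plant transcription factors that act in meristem upkeep, root patterning and gibberellin signalling. miR171 is found across land plants and cuts the transcripts of GRAS genes of the HAIRY MERISTEM (SCARECROW-LIKE6) group, which in Arabidopsis keep the shoot meristem active and bear on chlorophyll formation. miR473 and miR477 were described in fewer plant lineages, poplar among them, and have been linked to other GRAS genes. A microRNA is cut from a hairpin as a duplex of a 5′ arm (5p, or p5 in the names) and a 3′ arm (3p, or p3), of which usually a single arm is kept to guide cleavage. The seed here means bases 2 to 8 counted from the 5′ end. It serves only to compare sequences, and effects on targets were not tested.

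The mature sequences are shown because the members differ in where they start and in which arm they come from. They are written as DNA 5′ to 3′ as deposited, with the seed in capitals. The miR171 forms of the 3′ arm, and ptc-miR171j_R+1, which carries no arm in its name, cover a common stretch from shifted starts:
ptc-miR171e: tGATTGAGccgtgccaatatc
vvi-miR171f: tTGAGCCGcgccaatatcact
ptc-miR171j_R+1: cGAGCCGAatcaatatcactc
The most abundant miR171 forms of the 5′ arm, and ptc-miR171a-5p, which lies opposite ptc-miR171e, read:
ptc-miR171l-5p_1ss1TC: cGTGATATtggtccggctcatc
gma-miR171j-5p: tATTGGCCtggttcactcaga
ptc-miR171a-5p: gGATATTGgtacggttcaatc
The abundant arm of ptc-miR473a reads:
ptc-miR473a-5p_R+1: aCTCTCCCtcaaggcttccaa
The miR477 forms that carried most reads, and the most abundant 3′ arm, were:
ptc-miR477a-5p: aTCTCCCTcagaggcttccaa
ptc-miR477d-5p_R-1: aTCTCCCTcaaaggcttcctc
mdm-miR477b_R-2_2ss5TC20GC: aCTCCCCCtcaagggcttcc
ptc-MIR477c-p5: aCTCCCTCaaaggtttccag
ptc-miR477a-3p_1ss13GA: gGATGCCTttggaggagattg

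vvi-miR171f begins 3 bases downstream of ptc-miR171e, and 17 of the 18 bases that overlap are the same, but the shift gives it another seed. ptc-miR171j_R+1 begins 4 bases downstream, with 13 of 17 overlapping bases the same. The reverse complement of ptc-miR171a-5p matched ptc-miR171e at 18 of 20 bases without gaps, and that of ptc-MIR171b-p5 at 17 of 20. The letters GAGCCG were found on the listed strand in 3 miR171 sequences and in 4 of all 529 sequences (0.756%). The 22 members held 18 distinct seeds, of which 4 were shared by a pair of members.

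miR473 and miR477 resembled each other. The letters CTCCCTC stood in ptc-miR473a-5p_R+1 and in 3 miR477 sequences, against 8 of all 529 sequences (1.51%). The other 4 were 2 forms of miR1446, a form of a miR482 hairpin arm and the predicted candidate PC-5p-187614_16. ptc-miR473a-5p_R+1 shared 15 of 20 aligned bases with mdm-miR477b_R-2_2ss5TC20GC. These letters and this pair were picked after the sequences were seen. ptc-miR477a-5p and ptc-miR477d-5p_R-1 share a seed and differ at 3 positions from the 5′ end (G11A, A20T and A21C). Near-identical forms such as these cannot be separated with certainty by counting, and the mapper is not given in the sources used here. Most members, 17 of 22, were 21 nt long. The first base differed between the families: T began 77.0% of the miR171 reads at 0 mM, whereas A began 95.3% of the miR473 and 96.0% of the miR477 reads.

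The untreated library held 2640653 reads over all sequences and the libraries at 2, 4 and 8 mM held 4998878, 6369127 and 5310499. Levels are the authors' normalized read counts, which were not divided by length, the members being 20 to 22 nt long. Folds are plain ratios of these values and carry exact 95% intervals from the raw reads. The intervals cover counting error only, and no difference has a replicate check. Reads amplified by PCR are not independent molecules, so the intervals can be too narrow even for counting error. The smallest value above 0 among the members was 5 reads, and whether lower values were set to 0 before deposit is not known. Read as a count of 0 with a limit of 3 reads, a 0 allows a level of up to 4.07, 2.96, 2.50 and 2.67 at 0, 2, 4 and 8 mM. In RNA of whole leaves, fewer cells holding a microRNA and less of it per cell cannot be told apart.

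In family totals, miR473 was lower at all 3 doses than in the untreated library, miR171 was lower at 4 and 8 mM, and miR477 was higher at 2 mM by the authors' scaling but not with equal table totals. The 3 comparisons with 0 mM share that single library. Of all reads in the untreated library 0.514% fell to the 3 families, and 0.256%, 0.263% and 0.232% in the libraries at 2, 4 and 8 mM. Such shares amount to equal table totals. By the authors' scaling the 3 families together stood at 18398, 12613, 13942 and 11001 normalized read counts in order of dose, a smaller difference. Among 121 family numbers in the table miR473 ranked between 21 and 26 by level, miR171 between 31 and 33 and miR477 between 35 and 38, so their order was the same at each dose.

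miR473 totals, in order of dose, were 12947, 6494, 9310 and 6671 normalized read counts. The untreated library was highest, and 4 mM lay above both 2 and 8 mM. Against 0 mM the total was 1.99-fold lower (1.93 to 2.06) at 2 mM, 1.39-fold lower (1.35 to 1.43) at 4 mM and 1.94-fold lower (1.88 to 2.00) at 8 mM. From 2 to 4 mM it was 1.43-fold higher (1.39 to 1.48), and from 4 to 8 mM 1.40-fold lower (1.36 to 1.44).

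miR171 totals were 3709, 3740, 2927 and 2671 normalized read counts. The 0 and 2 mM libraries were alike in level and both lay above 4 and 8 mM. The ratio of 2 to 0 mM was 1.01 (0.960 to 1.06). Against 0 mM the total was 1.27-fold lower (1.204 to 1.33) at 4 mM and 1.39-fold lower (1.32 to 1.46) at 8 mM. Between 4 and 8 mM it was 1.10-fold lower (1.04 to 1.15), but with equal table totals the log2 ratio was 0.032.

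miR477 totals were 1743, 2379, 1706 and 1658 normalized read counts, with 2 mM the highest. At 2 mM the total was 1.37-fold higher (1.28 to 1.46) than at 0 mM, but with equal table totals the log2 ratio was -0.012. The ratios of 4 and 8 mM to 0 mM were 0.979 (0.912 to 1.05) and 0.951 (0.885 to 1.02), and both intervals hold 1. Equal table totals, which set every library to the same sum of reads, lower each log2 ratio to 0 mM by 0.46, 0.57 and 0.40 at 2, 4 and 8 mM. With them miR171 stood at log2 ratios of -0.45, -0.91 and -0.88, miR473 at -1.46, -1.04 and -1.36, and miR477 at -0.60 and -0.47 at 4 and 8 mM. TMM scaling lowers the ratio at 4 mM by 0.17 and those at the other doses by less than 0.1.

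**Figure D1:**
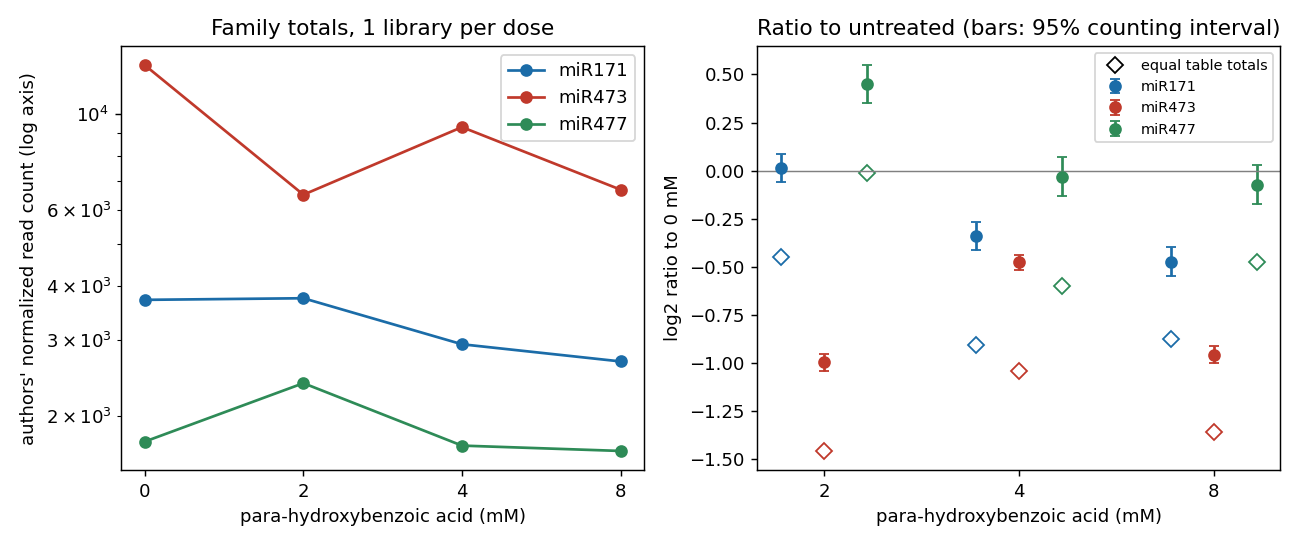
Family totals of miR171, miR473 and miR477 in the 4 leaf libraries (left, authors' normalized read counts on a log axis against the dose in mM) and their log2 ratios to 0 mM (right; filled points, authors' scaling with 95% counting intervals; open diamonds, equal table totals). miR473 lies below 0 at every dose by both scalings, whereas the 2 mM points of miR171 and miR477 lie near or above 0 with the authors' scaling and at -0.45 and -0.012 with equal table totals.

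The widely conserved miR171 and the narrower families were also compared as ratios of reads within a library, which no scaling between libraries changes. In the untreated library there were 3.49 miR473 reads (3.35 to 3.64) per miR171 read. At 2 mM there were 1.74 (1.67 to 1.81), and at 4 and 8 mM 3.18 (3.06 to 3.30) and 2.50 (2.39 to 2.61). The ratio was 2.01-fold lower (1.90 to 2.13) at 2 mM than at 0 mM, 1.10-fold lower (1.04 to 1.16) at 4 mM and 1.40-fold lower (1.32 to 1.49) at 8 mM. miR473 was thus lower relative to miR171 in all 3 treated libraries, by most at 2 mM.

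For miR477 the reads per miR171 read, in order of dose, were 0.470 (0.439 to 0.502), 0.636 (0.604 to 0.669), 0.583 (0.551 to 0.615) and 0.621 (0.585 to 0.658). The treated libraries lay above the untreated one, by 1.35-fold (1.24 to 1.47), 1.24-fold (1.14 to 1.35) and 1.32-fold (1.21 to 1.44). At 4 mM this direction turned when rows that repeat a sequence were used once (log2 difference -0.066). The totals of miR473 and miR477 thus moved in opposite directions relative to miR171: reads of miR473 per read of miR477 went from 7.43 (7.01 to 7.88) at 0 mM to 2.73 (2.61 to 2.86), 5.46 (5.21 to 5.72) and 4.02 (3.82 to 4.24) at 2, 4 and 8 mM. Single miR477 forms did not all follow their total. At 2 mM ptc-miR477d-5p_R-1 was 1.40-fold lower than at 0 mM. mdm-miR477b_R-2_2ss5TC20GC was 2.43-fold lower. In contrast, ptc-miR477a-5p, ptc-miR477a-3p_1ss13GA and ptc-MIR477c-p5 were higher.

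Sequences at least 2-fold higher or lower on the log2(value + 1) scale were counted among those whose mean over the 4 libraries was 10 or more, as it was for 15 of the 22 members. These 15 were also the members with reads in every library. At 2 mM, 4 were at least 2-fold higher than at 0 mM and 3 lower, where 20.9% and 23.7% of all 350 sequences past the same level were. At 4 mM 2 were higher and 3 lower, against 18.9% and 25.7% of all, and at 8 mM 1 was higher and 3 lower, against 14.9% and 21.4%. The members' counts lay near these shares at each dose. With equal table totals the members split into 2 higher and 5 lower, 0 and 6, and 0 and 5 at 2, 4 and 8 mM, and all sequences into 43 and 115, 36 and 128, and 35 and 111. Between neighbouring treated doses 1 member was higher and 1 lower from 2 to 4 mM (13.7% and 14.6% of all), and 0 higher and 2 lower from 4 to 8 mM (8.29% and 7.43% of all). A call here means a fold only, with 1 library per dose and no test by any tool.

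Their median log2 ratios to 0 mM were 0.03, -0.25 and -0.47 for the 8 counted miR171 sequences and 0.86, 0.39 and 0.20 for the 5 of miR477, at 2, 4 and 8 mM. The medians of all 350 were 0.04, 0.03 and -0.02. Sequences of other conserved families that target transcription factors (miR156, miR157, miR159, miR160, miR164, miR166, miR167, miR169, miR172, miR319 and miR396; miR165 had no value here) numbered 105. Of them 21 were higher and 28 lower at 2 mM, 22 and 24 at 4 mM, and 17 and 21 at 8 mM, with medians of 0.08, 0.12 and 0.14. The 29 sequences of other narrowly conserved families (miR475, miR476, miR478, miR481, miR1444, miR1446, miR1447, miR1448, miR1449 and miR1450) had 8 higher and 0 lower at 2 mM, 7 and 3 at 4 mM, and 7 and 0 at 8 mM, with medians of 0.37, 0.55 and 0.55. miR474, miR480 and miR1445, and the miR171-like families miR170 and miR479, had no value in the table as analysed. These lists were chosen with results of these data known, and their medians are descriptions.

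**Figure D2:**
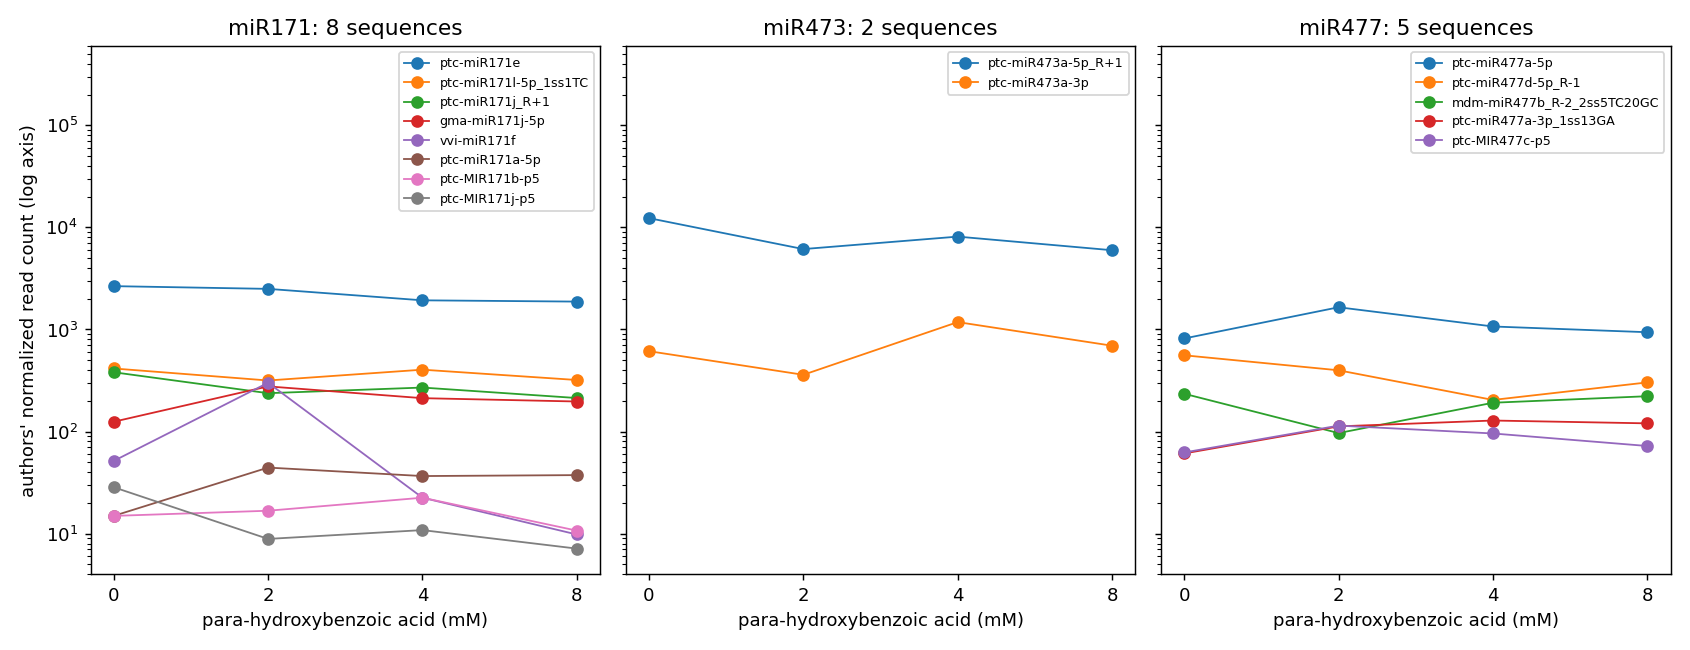
Authors' normalized read counts (log axis) of the 15 members that averaged 10 or more, by dose in mM, in 1 panel per family; each line is 1 sequence over 4 libraries. ptc-miR473a-5p_R+1 is the top line at every dose, and vvi-miR171f goes from 51.5 to 300.7 at 2 mM and 9.80 at 8 mM.

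Among the miR171 forms of the guide arm, ptc-miR171e, which is also listed as the p3 arm of the hairpins MIR171a and MIR171b, was the most abundant. In order of dose it stood at 2659, 2500, 1931 and 1876 normalized read counts. It was lower at 4 mM by 1.38-fold (1.30 to 1.46) and at 8 mM by 1.42-fold (1.33 to 1.51), and the level at 2 mM was 0.940 times that at 0 mM (0.886 to 0.998). It held 71.7% of the miR171 reads at 0 mM (exact 95% interval 70.0 to 73.4), 66.8% at 2 mM, 66.0% at 4 mM and 70.2% at 8 mM.

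vvi-miR171f, the form shifted by 3 bases and listed under grape and soybean names only, varied most. Its levels were 51.5, 300.7, 22.5 and 9.80 normalized read counts, from 38, 305, 27 and 11 reads. The 2 mM library stood apart from the other three. Against 0 mM it was 5.83-fold higher (4.16 to 8.40) at 2 mM, 2.29-fold lower (1.36 to 3.90) at 4 mM and 5.26-fold lower (2.63 to 11.4) at 8 mM. From 2 to 4 mM it was 13.4-fold lower (9.01 to 20.6). Its reads per ptc-miR171e read within a library, in order of dose, were 0.0194, 0.120, 0.0116 and 0.00523. It held 8.04% of the miR171 reads at 2 mM and at most 1.39% elsewhere. With ptc names only, which leaves out this form and all others under names of other species, gma-miR171j-5p among them, the miR171 total at 2 mM had a log2 ratio of -0.17 to 0 mM in place of 0.01.

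ptc-miR171j_R+1 stood at 381.1, 237.6, 269.8 and 213.0 normalized read counts, highest in the untreated library. It was 1.60-fold lower (1.35 to 1.91) at 2 mM, 1.41-fold lower (1.199 to 1.66) at 4 mM and 1.79-fold lower (1.5003 to 2.13) at 8 mM. ptc-MIR171j-p5, the 5′ arm of the hairpin of that name, stood at 28.5, 8.87, 10.8 and 7.13, from 21, 9, 13 and 8 reads, and was likewise highest at 0 mM. It was 3.21-fold lower (1.41 to 7.96) at 2 mM, 2.63-fold lower (1.26 to 5.72) at 4 mM and 3.99-fold lower (1.70 to 10.4) at 8 mM, on few reads.

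A pair of other miR171 forms of the 5′ arm did the opposite. gma-miR171j-5p stood at 124.8, 277.0, 212.4 and 197.0 normalized read counts, lowest in the untreated library. It was 2.22-fold higher (1.75 to 2.84) at 2 mM, 1.70-fold higher (1.34 to 2.18) at 4 mM and 1.58-fold higher (1.23 to 2.04) at 8 mM. With equal table totals the log2 ratios were 0.69, 0.20 and 0.25. ptc-miR171a-5p, a form opposite ptc-miR171e, stood at 14.9, 44.4, 36.6 and 37.4, from 11, 45, 44 and 42 reads. It was 2.97-fold higher (1.51 to 6.38) at 2 mM, 2.46-fold higher (1.25 to 5.27) at 4 mM and 2.51-fold higher (1.27 to 5.40) at 8 mM, the only member at least 2-fold higher at all 3 doses by the authors' scaling. With equal table totals its log2 ratios were 1.07, 0.70 and 0.89.

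ptc-miR171l-5p_1ss1TC stood at 415.0, 316.5, 403.9 and 320.0 normalized read counts, with 0 and 4 mM above 2 and 8 mM. Its ratio to 0 mM was 0.763 (0.650 to 0.895) at 2 mM, 0.973 (0.842 to 1.13) at 4 mM and 0.771 (0.660 to 0.901) at 8 mM. ptc-MIR171b-p5, which like ptc-miR171a-5p lies opposite ptc-miR171e, stood at 14.9, 16.8, 22.5 and 10.7. All 3 intervals of its ratio to 0 mM hold 1 (0.496 to 2.65, 0.724 to 3.37 and 0.290 to 1.79).

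The remaining miR171 members did not reach the level for counting and were each absent from at least 2 libraries. ptc-miR171g-5p had 14 reads at 0 mM, ptc-MIR171f-p5 had 20 reads at 2 mM, the sequence listed both as lja-miR171d-3p and mtr-miR171e-5p had 14 reads at 2 mM, and ptc-miR171h-5p had 5 reads at 4 mM, each listed at 0 in the other libraries. mtr-miR171c_2ss9CT21TC, which differs from ptc-miR171e by C9T, had 5 reads at 2 mM and 16 at 4 mM and was listed at 0 at 0 and 8 mM.

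For miR473 the arms parted most at 4 mM. ptc-miR473a-5p_R+1, the abundant arm, stood at 12334, 6134, 8128 and 5978 normalized read counts, with the untreated library the highest. It was 2.01-fold lower (1.95 to 2.08) at 2 mM, 1.52-fold lower (1.47 to 1.56) at 4 mM and 2.06-fold lower (2.00 to 2.13) at 8 mM. ptc-miR473a-3p stood at 613.0, 359.8, 1182 and 693.4, highest at 4 mM and lowest at 2 mM. Against 0 mM it was 1.70-fold lower (1.48 to 1.96) at 2 mM and 1.93-fold higher (1.73 to 2.15) at 4 mM, and from 2 to 4 mM it was 3.28-fold higher (2.93 to 3.69). At 8 mM it was 1.13-fold higher (1.01 to 1.27) than at 0 mM, but with equal table totals the log2 ratio was -0.22. At 4 mM the log2 ratio to 0 mM was 0.38 with equal table totals, in place of 0.95.

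The 3′ arm therefore made up 4.73% of the miR473 reads in the untreated library, with an exact 95% interval of 4.32 to 5.18. At 2 mM it made up 5.54% (5.001 to 6.12), and at 4 and 8 mM 12.7% (12.1 to 13.3) and 10.4% (9.71 to 11.1). In reads this was 452 of 9546, 365 of 6587, 1419 of 11178 and 778 of 7485. The counting intervals at 4 and 8 mM lay above those of the other libraries and did not overlap them.

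The scarcer arm also held a larger share at 4 and 8 mM in the other families. For miR477, names with 3p held, in order of dose, 4.07% (2.99 to 5.41), 4.94% (4.09 to 5.90), 9.02% (7.73 to 10.4) and 8.38% (7.07 to 9.84) of the reads with a named arm. For miR171, in which the 5′ arm is the scarcer, it held 18.5% (17.0 to 20.1), 19.6% (18.3 to 20.96), 26.1% (24.6 to 27.7) and 23.3% (21.7 to 24.9). Members whose names give no arm or both arms were left out of these shares. Each share pools names of different hairpins, so it also depends on their mix. A ratio within the name ptc-miR477a need not lie within 1 hairpin, since hairpins were not placed and ptc-miR477a-5p is listed in 2 rows. By this name there were 13.4 reads (9.87 to 18.5) of ptc-miR477a-5p per read of ptc-miR477a-3p_1ss13GA at 0 mM. At 2 mM there were 14.7 (12.1 to 17.9). At 4 and 8 mM there were 8.34 (7.05 to 9.93) and 7.81 (6.53 to 9.42). The comparison was chosen after the values were seen. Of 30 other families with both arms named, 12 had a higher share of the scarcer arm at both 4 and 8 mM than at 0 mM, and 10 had a share at least 1.5 times that of 0 mM at 4 mM.

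**Figure D3:**
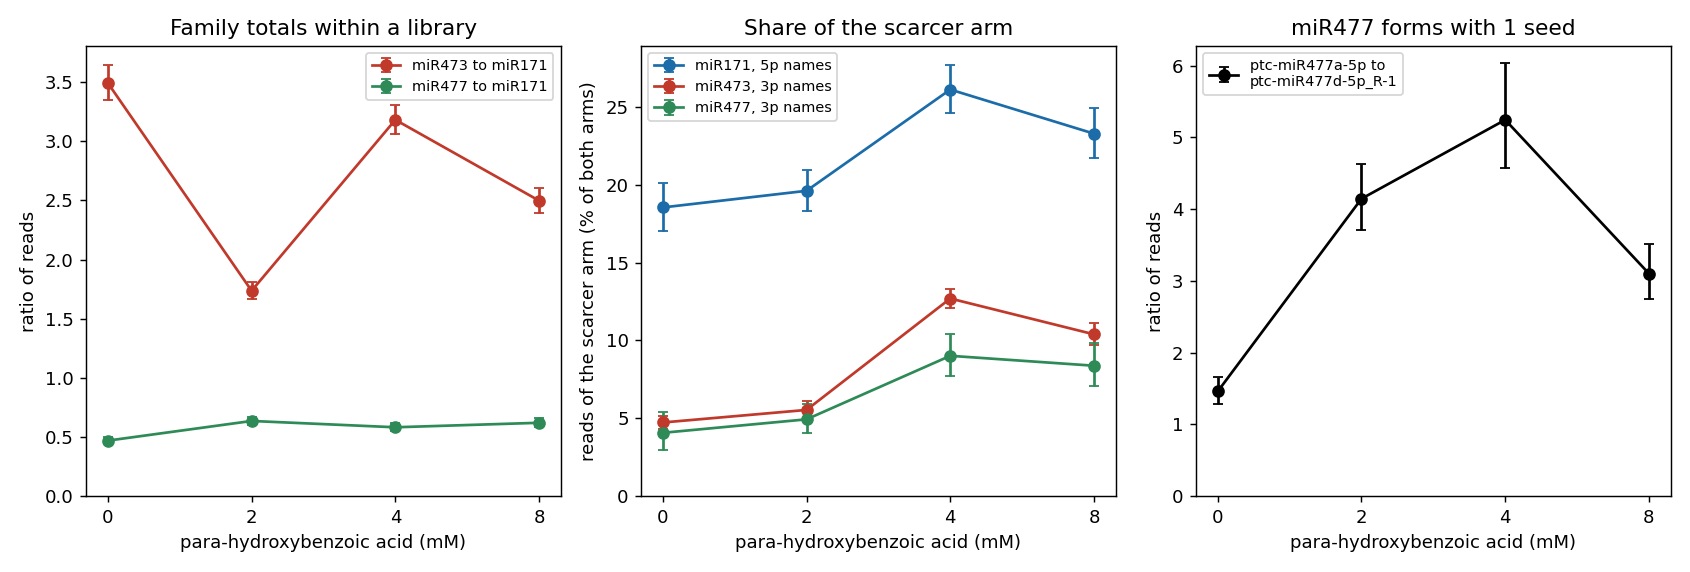
Ratios and shares taken within each library, which do not depend on scaling, against the dose in mM, with exact 95% counting intervals: reads of miR473 and miR477 per miR171 read (left), share of the scarcer arm in the reads with a named arm (middle, %), and reads of ptc-miR477a-5p per read of ptc-miR477d-5p_R-1 (right). The miR473 curve is lowest at 2 mM (1.74), the 3 arm shares are highest at 4 mM, and the miR477 forms go from 1.46 to 5.24 at 4 mM.

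For miR477 the most abundant 5′ arm forms parted although they share a seed. ptc-miR477a-5p stood at 816.5, 1651, 1070 and 940.3 normalized read counts, highest at 2 mM and lowest at 0 mM. It was 2.02-fold higher (1.84 to 2.22) at 2 mM, 1.31-fold higher (1.19 to 1.45) at 4 mM and 1.15-fold higher (1.04 to 1.28) at 8 mM. With equal table totals the log2 ratio was 0.56 at 2 mM but turned at 4 and 8 mM, to -0.18 and -0.20.

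ptc-miR477d-5p_R-1 stood at 558.8, 398.3, 204.1 and 303.0 normalized read counts, highest at 0 mM and lowest at 4 mM. It was 1.40-fold lower (1.22 to 1.61) at 2 mM, 2.74-fold lower (2.33 to 3.22) at 4 mM and 1.84-fold lower (1.59 to 2.13) at 8 mM. Within a library the reads of ptc-miR477a-5p per read of ptc-miR477d-5p_R-1 were, in order of dose, 1.46 (1.29 to 1.66), 4.15 (3.72 to 4.63), 5.24 (4.57 to 6.04) and 3.10 (2.74 to 3.52). The untreated library was the lowest, and none of these intervals overlaps that of 0 mM. This pair, too, was picked after its values were seen.

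mdm-miR477b_R-2_2ss5TC20GC, listed under an apple name, stood at 234.6, 96.6, 191.6 and 221.9 normalized read counts, with 2 mM the lowest. It was 2.43-fold lower (1.88 to 3.14) at 2 mM, and its ratios at 4 and 8 mM were 0.816 (0.667 to 1.00) and 0.946 (0.776 to 1.16). ptc-miR477a-3p_1ss13GA stood at 61.0, 112.4, 128.3 and 120.3, lowest in the untreated library. It was 1.84-fold higher (1.29 to 2.66) at 2 mM, 2.10-fold higher (1.499 to 2.999) at 4 mM and 1.97-fold higher (1.40 to 2.83) at 8 mM. With equal table totals its log2 ratios were 0.42, 0.50 and 0.57.

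ptc-MIR477c-p5 stood at 62.4, 114.4, 95.8 and 72.2 normalized read counts, highest at 2 mM. It was 1.83-fold higher (1.29 to 2.64) at 2 mM and 1.54-fold higher (1.08 to 2.21) at 4 mM, and its ratio at 8 mM was 1.16 (0.796 to 1.70). The other 2 members were scarce: ptc-miR477c_R-1 had 7, 6 and 10 reads at 0, 2 and 4 mM and was listed at 0 at 8 mM, and ptc-miR477d-3p had 9 reads at 4 mM and was listed at 0 elsewhere. Of the miR477 reads, ptc-miR477a-5p held 46.8%, 69.4%, 62.7% and 56.7% in order of dose, while ptc-miR477d-5p_R-1 held 32.1%, 16.7%, 12.0% and 18.3%.

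**Figure D4:**
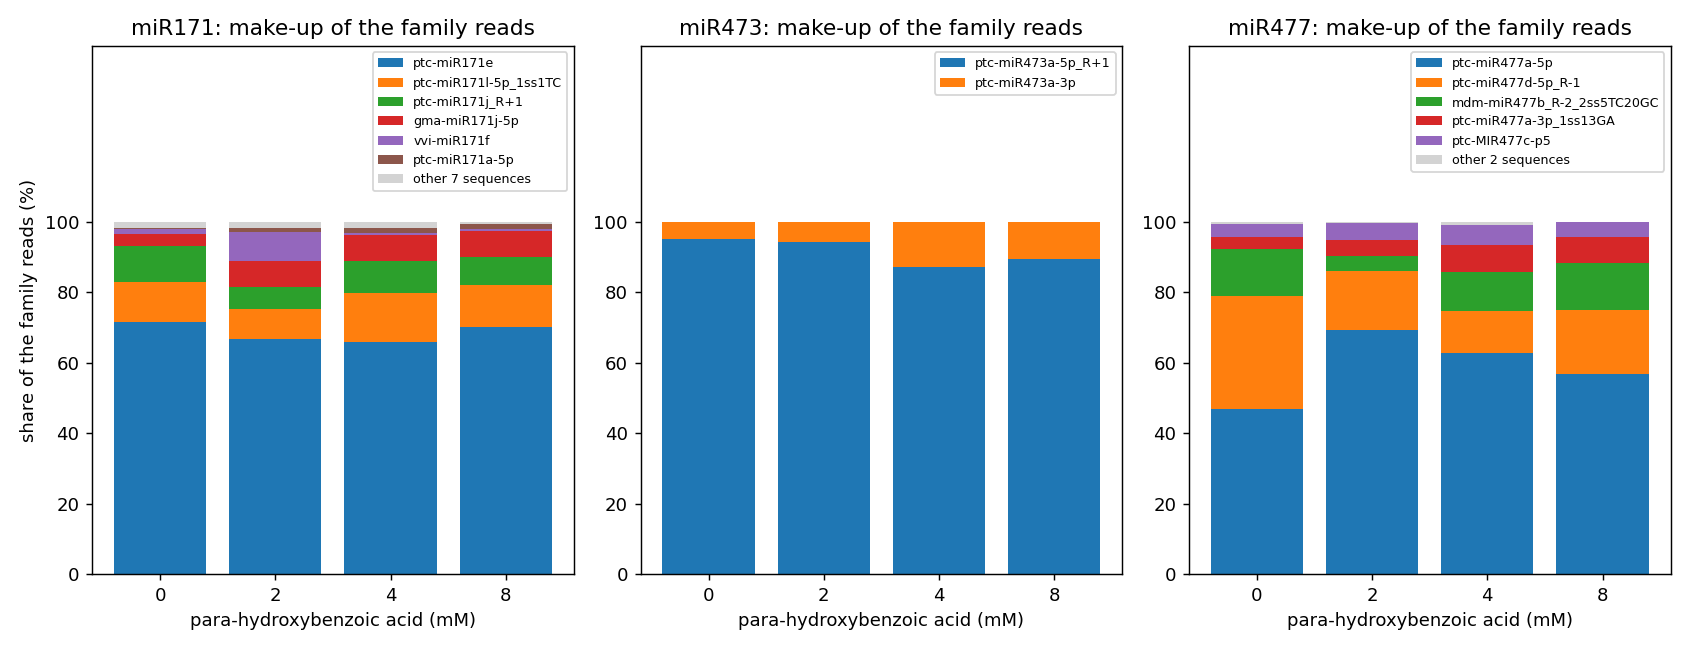
Share of each family's reads (%) held by its sequences at 0, 2, 4 and 8 mM, as stacked bars from 0 to 100; sequences that never reached 1% are summed in grey. ptc-miR171e holds 66.0% to 71.7% of miR171, the 3′ arm of miR473 is widest at 4 mM (12.7%), and ptc-miR477d-5p_R-1 shrinks from 32.1% of miR477 at 0 mM to 12.0% at 4 mM.

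A line of text within the authors' deposited table marks the sequences after it as not significant at a p-value of 0.05. Before that line of the authors' deposited table stand 19 members, and after it 3, namely ptc-miR171a-5p, ptc-miR477a-3p_1ss13GA and ptc-MIR171b-p5. How all sequences split at the line was not counted, so these numbers do not set the members apart from the rest. No test is named for the line, and nothing above rests on it.

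Other families were ordered by how closely their log2 ratios to 0 mM followed those of each total, by the largest difference over the 3 doses, among the 57 other families that averaged 100 normalized read counts or more. Closest to miR171 were miR6173 (largest difference 0.25), miR164 (0.27), which targets NAC transcription factors, and miR160 (0.30), which targets auxin response factors. Closest to miR473 were miR156 (0.31), which targets SPL transcription factors, miR6478 (0.39) and miR2913 (0.40). Closest to miR477 were miR6424 (0.14), miR6462 (0.21) and miR6173 (0.34). All profiles share the untreated library and rest on 4 libraries.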

How the data were processed

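Small RNA of poplar leaves was measured in 4 libraries, 1 per dose of para-hydroxybenzoic acid. The submitters' processing notes list bcl2fastq 1.8.4. How reads were mapped and counted, and against which build and annotation, is not given in the sources used here. Per the file headers, the authors deposited raw values, which are estimated counts with fractions among them, and normalized values, a linear signal. The normalized values come out as the raw ones multiplied by 1.356, 0.986, 0.833 and 0.891 in order of dose. The 738 rows were summed to 529 sequences. The 156 sequences listed in several rows hold equal values in each, and 83.2% of their summed raw values above 0 are whole (within 0.01), against 39.4% of the values of a single row and 82.8% for sequences in 1 row.

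Counts past 2-fold used log2(value + 1) and the 350 sequences averaging 10 or more. Intervals are exact 95% binomial ones (scipy 1.17.1) on counts rounded to whole reads; a change of a within-library ratio has a conditional odds ratio interval. No p-value was computed. The procedure was checked on simulated data with counting error only and large planted changes. That check does not cover smaller folds or differences between plants. TMM factors came from edgeR 4.0.16.

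The members and lists were chosen with earlier results of these data known. Sequences named with values are the 3 most abundant of each family, those at least 2-fold higher or lower at any dose and, to account for every member, the rest. Arm shares and 2 of the pairs compared were chosen after the values were seen. The sequences of some members are not reported here.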

Additional observations from a re-analysis of the deposited data

How the results depend on the processing

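No paired analysis was possible because each dose was 1 pooled library. With equal table totals the log2 ratios at 2, 4 and 8 mM to 0 mM, then 4 to 2 and 8 to 4 mM, were -0.45, -0.91, -0.88, -0.46 and 0.032 for miR171, -1.46, -1.04, -1.36, 0.41 and -0.32 for miR473, and -0.012, -0.60, -0.47, -0.59 and 0.12 for miR477. The signs that turned were those of miR171 at 2 mM, of miR477 at 2 mM, and of miR171 and miR477 from 4 to 8 mM. Of single sequences, ptc-miR473a-3p at 8 mM (-0.22) and ptc-miR477a-5p at 4 and 8 mM (-0.18 and -0.20) turned. So did ptc-MIR477c-p5 at 8 mM (-0.19) and ptc-MIR171b-p5 at 2 mM (-0.28), whose counting intervals hold no change. Members counted as higher or lower became 2 and 5, 0 and 6, and 0 and 5 at 2, 4 and 8 mM, and all sequences counted as higher became 43 at 2 mM and 36 at 4 mM. TMM factors gave -0.073, -0.51, -0.56, -0.44 and -0.053 for miR171, -1.08, -0.64, -1.05, 0.44 and -0.40 for miR473, and -0.20 for miR477 at 4 mM. With them 1 member and 50 of all sequences were higher at 4 mM. The filter was applied anew under each scaling, so the number of sequences past it can differ. Median-of-ratios factors kept every total, count and named sequence within counting error or 1.5 times.

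The make-up of a total also mattered. The most abundant sequence alone gave -0.089 and -0.46 for miR171 at 2 and 4 mM, -0.60 and -1.04 for miR473 at 4 and 8 mM, and 1.02, 0.39 and 0.20 for miR477 at 2, 4 and 8 mM. Relative to miR171 within a library it gave -0.92 for miR473 at 2 mM and 1.10, 0.85 and 0.71 for miR477 at the 3 doses. With ptc names only, miR171 and miR477 stood at -0.17 and 0.60 at 2 mM, and miR473 and miR477 relative to miR171 at -0.83 and 0.77. With repeated rows used once, miR171 stood at 0.11, -0.12 and -0.36 and miR477 at 0.22 and -0.19 at 2 and 4 mM. Relative to miR171, miR473 then stood at -1.11, -0.35 and -0.60, and miR477 at 0.11, -0.066 and 0.19, so that the sign at 4 mM turned. This setting gives less weight to sequences listed in several rows, among them ptc-miR171e with 6 rows and ptc-miR477a-5p with 2. Names with miR only moved no total past its counting interval.

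With no filter 7 of the 22 members were higher at 2 mM, 5 were higher at 4 mM and 5 were lower at 8 mM. Of all 529 sequences 137 were higher and 128 lower at 2 mM, 137 higher at 4 mM, and 115 higher and 122 lower at 8 mM. The members that this setting adds were each listed at 0 in some library. With a mean of at least 50, 1 member was higher at 4 mM and 0 at 8 mM, and of all sequences 43 were higher and 46 lower at 2 mM, 34 and 52 at 4 mM, and 28 and 37 at 8 mM. Fewer sequences reach this mean, so these counts are not shares of the same totals. How many members and how many of all sequences reach it was not counted, so the counts cannot be compared as shares. Apart from the construction of these settings the cause of a change was not tested. Depth limits the members under about 50 reads, whose intervals span 2-fold and more.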
